A study of Homo sapiens with 62 samples.

Results

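SNORD13, RN28S1, RP11-329L6.1, RMRP and RPPH1 are 5 genes grouped here as structural noncoding RNAs, of the 55040 gene rows in each deposited file. They were chosen by symbol, because earlier results of these data had shown such RNAs to differ between the 2 sets of libraries described next. FPKM between those sets is therefore given for these genes as a description, with no test. Where a symbol had several rows, the row with the highest mean FPKM over the 20 libraries was taken. RPPH1 has 2 rows that tie at 0, and of these the one with status OK was taken.

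The libraries came from GM12878, a B-lymphoblastoid cell line immortalised with Epstein-Barr virus, and each is 1 of 10 parts of a pool of 10 cells, processed by the steps used for a single cell. In the 20 libraries, 10 titles number the splits from 1 to 10 (numbered splits), and the other 10 give only a library number, 232, 233 or 246 to 253 (unnumbered splits). By laboratory experiment number the numbered splits form run a (splits 5 to 8) and run b (the other 6), and the unnumbered splits form run c (232 and 233) and run d (the other 8); whether a run was a batch is not given. No treatment, strain or donor differs between the libraries by their labels, which call the molecule polyA RNA and name a SMARTer kit for the cDNA and Nextera for the fragmentation. Whether all splits of a set go back to the same pool is not stated, so the spread between splits may hold differences between cells as well as technical noise. Set, pool and run cannot be told apart, and p-values between the sets measure only the spread between splits. The labels mark 9 of the 10 unnumbered splits, all but 247, as superseded by a later record, which was not used here. The remaining 42 of the 62 samples were not analysed here.

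All 5 names stand for noncoding RNAs. SNORD13 is the U13 box C/D small nucleolar RNA, which guides acetylation of 18S ribosomal RNA together with the acetyltransferase NAT10. RN28S1 carries the name of the 28S ribosomal RNA of the large ribosomal subunit, which RNA polymerase I transcribes. Whether its row in the files measures that RNA is uncertain. RMRP is the RNA of RNase MRP, which cuts the ribosomal RNA precursor, and RPPH1 is the RNA of RNase P, which trims the 5′ end of transfer RNA precursors; both are made by RNA polymerase III and share most of their protein subunits. RP11-329L6.1 has the name SNHG25 in GENCODE 29, a host gene that carries small nucleolar RNAs. Most RNAs of this kind have no long poly(A) tail, while the cDNA step of such kits starts from oligo(dT).

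The transcripts that the results turn on are shown here from GENCODE 29 (GRCh38), to let the lengths and the runs of A be seen. SNHG25 has 2 annotated transcripts at chr17:64145970-64146309 and chr17:64145970-64146476 on the plus strand, of 106 and 278 bases. They end their first exon at different bases, and the 80 bases of exon 2 of the short one are the start of exon 2 of the long one. Capitals mark AATAAA, the usual polyadenylation signal, in the short transcript and the 133 bases of the H/ACA small nucleolar RNA SNORA50C (older name SNORA76, placed from RefSeq on GRCh38.p14) in the long one.
SNHG25-201: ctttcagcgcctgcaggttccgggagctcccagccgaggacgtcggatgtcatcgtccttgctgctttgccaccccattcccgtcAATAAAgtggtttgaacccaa
SNHG25-202: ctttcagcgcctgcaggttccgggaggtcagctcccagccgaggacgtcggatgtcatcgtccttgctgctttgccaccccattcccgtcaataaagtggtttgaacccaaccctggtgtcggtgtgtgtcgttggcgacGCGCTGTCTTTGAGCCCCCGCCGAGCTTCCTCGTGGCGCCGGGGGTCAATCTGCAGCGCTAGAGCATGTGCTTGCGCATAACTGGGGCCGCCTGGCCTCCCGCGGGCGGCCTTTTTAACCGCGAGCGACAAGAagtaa

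AATAAA, searched on the transcript strand only, occurs once in each SNHG25 transcript. It occurs in 3.81% of the GENCODE 29 transcripts within 10% of 106 bases and in 15.4% of those within 10% of 278 bases. The longest run of A is 3 bases in both.

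RMRP-202 (chr9:35657754-35658017, minus strand) has 264 bases, the length of the RMRP row in the files, and was matched by symbol and length. Capitals mark its first run of 3 A, the longest run it holds. A longer run occurs in 70.4% of the 3018 transcripts within 10% of that length.
RMRP-202: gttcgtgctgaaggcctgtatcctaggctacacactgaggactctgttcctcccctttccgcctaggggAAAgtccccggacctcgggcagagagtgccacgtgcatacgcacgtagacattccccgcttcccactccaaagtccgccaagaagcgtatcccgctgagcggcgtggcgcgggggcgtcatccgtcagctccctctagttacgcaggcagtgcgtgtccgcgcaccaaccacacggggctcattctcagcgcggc

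The RPPH1 row that was taken corresponds by its identifier and its 638 bases to a longer transcript (chr14:20343048-20343685, minus strand) that GENCODE 29 lists under a gene of its own, AL355075.4, of the type antisense, and that holds RPPH1-201 as its bases 279 to 611. Its last 60 bases are shown because they end in 18 A, in capitals. RPPH1-201 itself holds no run of A longer than 2 bases, and 96.2% of transcripts within 10% of its 333 bases hold a longer one.
RPPH1 long row, last 60 bases: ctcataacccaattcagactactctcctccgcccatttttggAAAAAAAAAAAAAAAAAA

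The values are FPKM, fragments per kilobase of transcript and per megafragment mapped (M). Depth, read from the deposited confidence bounds of 10 mitochondrial genes, was 11.8 to 20.6 M in the numbered splits and 23.3 to 38.7 M in 8 unnumbered splits, with 7.79 M in split 252 and 0.128 M in split 247. The B cell markers CD74, the invariant chain, and HLA-DRA, a class II antigen, were above 0 in all 20 libraries, and 4 of the 8 markers tested were higher in numbered splits (limma, adjusted p under the threshold of 0.05), where 3.93% of all rows were; with runs b, c and d only it was 2 of 8. The summed FPKM of 7 T and NK cell markers ranged from 3.18 to 99.2 in numbered splits (median 32.3) and from 0 to 243 in unnumbered splits (median 0). The 243 was NKG7 alone, and 2 of the 7 markers were listed at 0 in all 20 libraries. The summed FPKM of 7 monocyte and granulocyte markers ranged from 1.46 to 53.8 in numbered splits and from 0.905 to 1.65 in unnumbered splits. Nearly all of it was CSF1R (1.46 to 53.8 FPKM in numbered and 0.902 to 1.65 FPKM in unnumbered splits). Of these 7 markers 3 were listed at 0 in all 20 libraries. The part of these markers, and of depth, in the values below was not tested.

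SNORD13 was the member with the highest FPKM. Its row spans bases 33370993 to 33371096 of chromosome 8 (104 bases; coordinates are as the files give them, raised by 1 at the start, and the sources used here do not name the build) and had status OK in all 20 libraries. In numbered splits 1 to 10 it had 4769, 7502, 10569, 11178, 3336, 10921, 2977, 6532, 2136 and 3465 FPKM. In unnumbered splits it had 2714 FPKM in split 232 and 601 FPKM in split 248, and it was listed at 0 in the other 8. It was thus above 0 in all 10 numbered splits and in 2 unnumbered splits, and the 2 sets overlap because split 232 lies above split 9. The mean was 6338 ± 3534 FPKM in numbered splits and 331 ± 858 FPKM in unnumbered splits (SD, n = 10 each), a ratio of 19.1. On the log2(FPKM + 1) scale the difference, numbered minus unnumbered, was 10.34. With most unnumbered splits at 0, the size of this difference depends on the 1 that is added. In libraries of divided pools, fewer cells with the RNA and less RNA per cell cannot be told apart.

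These FPKM rest on few fragments. The deposited bounds widen with the square root of the number of fragments, so they give that number for each FPKM. For SNORD13 that number came to 3.98, 10.98, 10.98, 12.9, 2.97, 14.9, 2.97, 6.99, 2.98 and 4.98 in numbered splits 1 to 10, within 0.1 of a whole number each. It came to 6.44 in split 232 and 0.987 in split 248. All 10 numbered splits together hold 74.7 such fragments and all 10 unnumbered splits 7.43. One fragment was worth 684 to 1199 FPKM in a numbered split. FPKM, fragments and depth together give the length by which the authors' program divided: 0.0708 to 0.0711 bases for this row in numbered splits, a length that counts the positions where a whole fragment could lie and so nears 0 for a transcript shorter than most fragments. The lower bound was above 0 in 6 numbered splits and in 1 unnumbered split. Per M, SNORD13 had 0.450 ± 0.251 fragments in numbered splits and 0.0227 ± 0.0586 in unnumbered splits (SD, n = 10 each), a ratio of 19.8. The coefficient of variation of its FPKM over numbered splits was 0.558, where counting alone would give 0.366.

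For the 7 unnumbered splits at 0 other than split 247, 1 fragment on this row would have been worth 364 to 1808 FPKM. In split 247 it would have been worth 110303 FPKM, so that library cannot show a level like that of the numbered splits. Among the 2343 rows used within 10% of 104 bases, 59 (2.52%) were above 0 in any library. Of these rows SNORD13 alone was above 0 in at least 8 numbered splits, and 0 of them were above 0 in at least 8 unnumbered splits. A further 1255 rows of like length had status LOWDATA in all libraries and were left out. Among somewhat longer RNAs, SNORD118 (134 bases, LOWDATA) was above 0 in 9 numbered splits and RNU1-1 (164 bases) in 10. Since SNORD13 was chosen with the contrast of the sets known, nothing is read from its place among these rows.

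**Figure D1:**
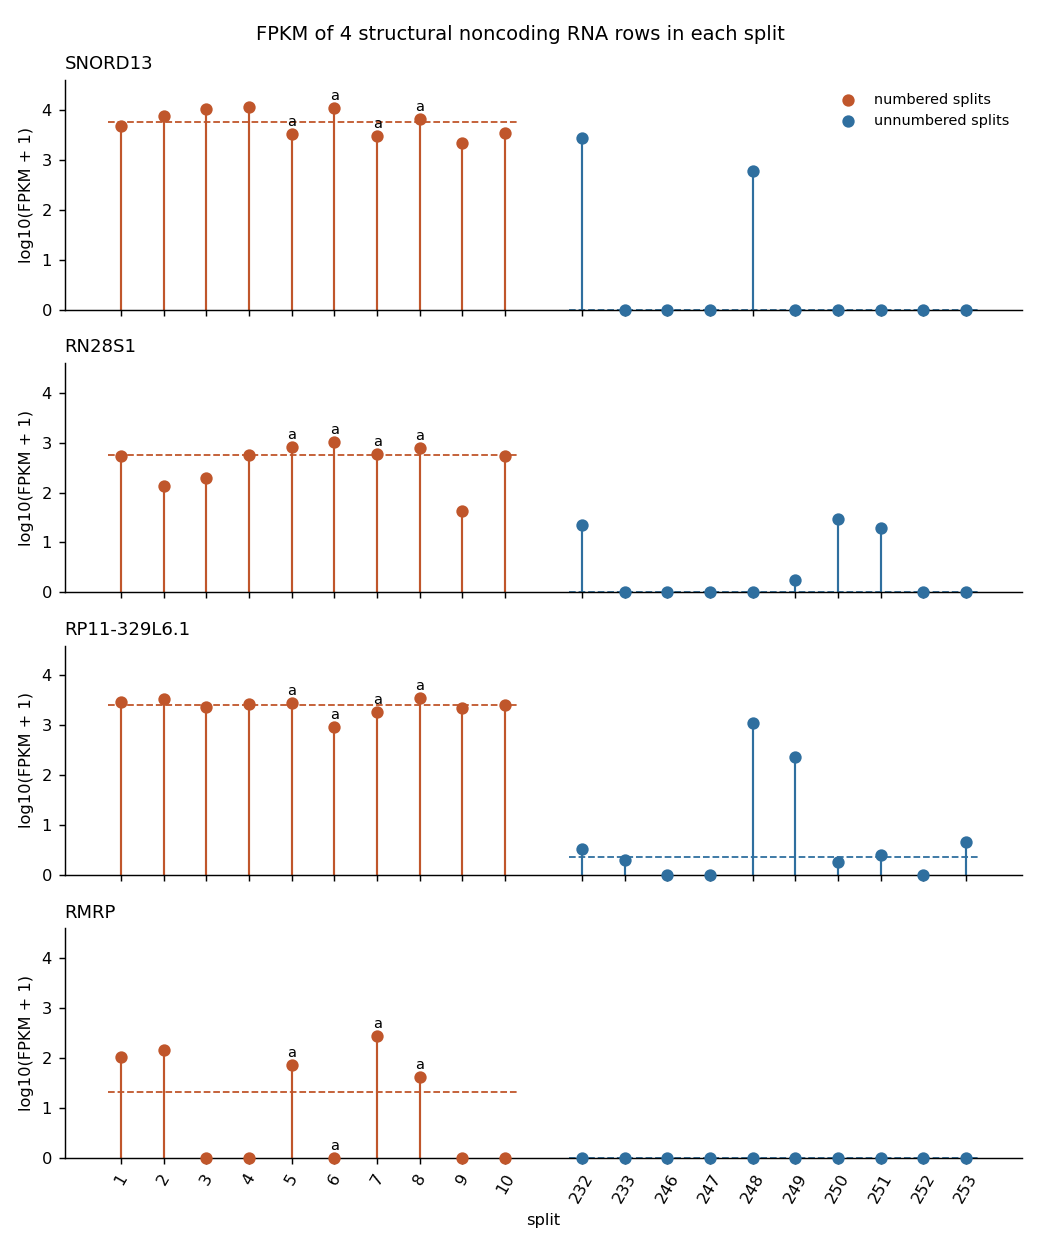
FPKM of SNORD13, RN28S1, RP11-329L6.1 and RMRP in each library, as log10(FPKM + 1), with numbered splits 1 to 10 on the left and unnumbered splits on the right. Dashed lines mark the median FPKM of each set and the letter a marks run a. SNORD13, RN28S1 and RP11-329L6.1 are above 0 in all 10 numbered splits, RMRP in 5, and in unnumbered splits they are above 0 in 2, 4, 7 and 0.

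SNORD13 lies inside TTI2, a gene of the TELO2-TTI1-TTI2 complex that stabilises kinases of the PIKK family. TTI2 had a median of 0.167 FPKM in numbered splits, with 49.8 FPKM in split 7, and a median of 14.5 FPKM in unnumbered splits, with 263 FPKM in split 232. The difference was -2.84 (SE 1.12) on the log2 scale and did not pass the test (limma, adjusted p = 0.172). Split 232 had the highest SNORD13 and the highest TTI2 of the unnumbered splits. The counting is not stated to use strand, so reads of the 2 genes cannot be told apart where they overlap.

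RN28S1 had fewer FPKM than SNORD13 but rested on many more fragments. Its row spans bases 108297361 to 108297792 of chromosome X (432 bases, status OK in all 20). RefSeq (GRCh38.p14) gives RN28S1 as an older name of the 28S genes RNA28SN4 and RNA28SN5, of 5077 and 5070 bases, and this row is far shorter than both. Its likeness in sequence to them was not examined, so its level is uncertain as a measure of 28S ribosomal RNA. In numbered splits 1 to 10 it had 532, 133, 191.6, 567, 805, 1028, 580, 777, 41.8 and 546 FPKM. In unnumbered splits it had 21.6 FPKM in split 232, 0.801 in split 249, 28.9 in split 250 and 18.9 in split 251, and was listed at 0 in the other 6. Every numbered split lay above every unnumbered split, which held for 1 of the 5 members and for 1.65% of the 10506 rows tested. Since the members were chosen with this contrast known, nothing is read from that share.

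The mean of RN28S1 was 520 ± 316 FPKM in numbered splits and 7.02 ± 11.4 FPKM in unnumbered splits (SD, n = 10 each), a ratio of 74.1, and the log2 difference was 7.13. The fragments behind it numbered 179 to 4312 in numbered splits and at most 203 in unnumbered splits. The coefficient of variation of its FPKM over numbered splits was 0.608, where counting alone would give 0.0236, though fragments of amplified cDNA are not independent molecules. At 0.119 to 0.589 FPKM for 1 fragment, 5 of the unnumbered splits at 0 were deep enough to show the levels of the others; split 247, at 35.9 FPKM for 1 fragment, was not.

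Within the numbered set, RN28S1 was the member that differed most between runs relative to its error. It averaged 798 ± 183.5 FPKM in run a (n = 4) and 335 ± 239 FPKM in run b (n = 6; SD), and all 4 splits of run a lay above all 6 of run b. Such separation in this direction was found for 0.984% of the 9955 rows tested. The log2 difference was 1.72 (SE 0.68) and did not pass the adjustment over all rows (limma, p = 0.0248, adjusted p = 0.832). With run b against run d alone, the log2 difference between numbered and unnumbered splits was 6.64.

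The gene with the profile most like that of RN28S1 over the 10 numbered splits was MT-RNR1, the mitochondrial 12S ribosomal RNA, matched by its identifier (r = 0.95 and Spearman's rho = 0.78 on log2 values, the highest r of 2622 genes). Without the 2 splits farthest from the median, r was 0.83, and it was 0.61 over the 10 unnumbered splits. MT-RNR1 had a median of 6728 FPKM in numbered splits, from 1222 in split 9 to 10762 in split 6, and a median of 1861 FPKM in unnumbered splits, from 1169 to 2642. The sets overlap, and the log2 difference was 1.57 (SE 0.30; limma, adjusted p = 0.00127). MT-RNR2, the mitochondrial 16S ribosomal RNA, was named after its values were seen. It had a median of 14047 FPKM in numbered splits, from 7386 to 21241, and of 3635 FPKM in unnumbered splits, from 2690 to 4116, with no overlap (log2 difference 1.91, SE 0.14; limma, adjusted p = 2.00e-09). Its r with RN28S1 was 0.53 over numbered splits. TMCO1, a calcium channel of the endoplasmic reticulum, came second (r = 0.94, and 0.69 without the 2 splits). The points of all these correlations share library and depth.

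**Figure D2:**
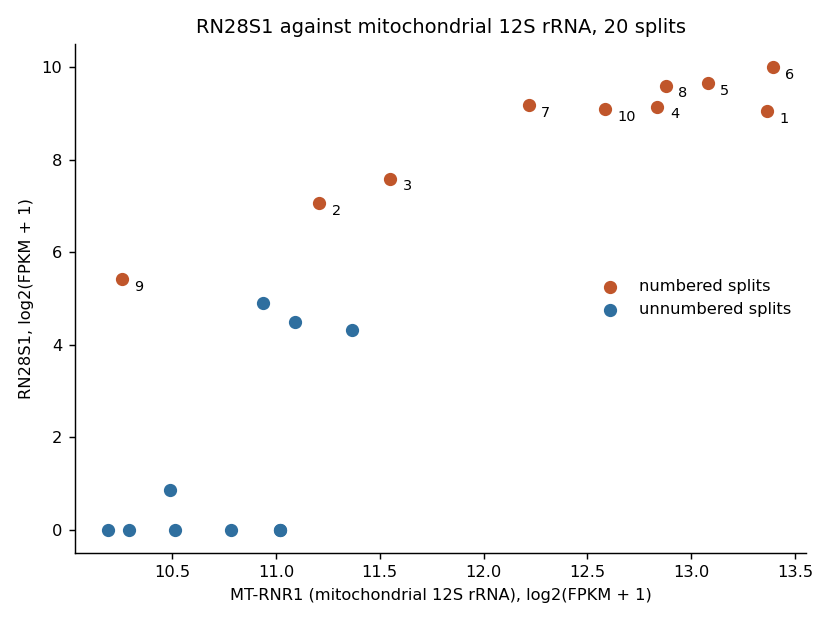
RN28S1 against MT-RNR1 in the 20 libraries, both as log2(FPKM + 1), with the split number beside each numbered split. Split 9 is lowest in both and split 6 highest in both among the numbered splits; 6 unnumbered splits lie at 0 for RN28S1.

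RP11-329L6.1, the small nucleolar RNA host gene SNHG25, was above 0 in all 10 numbered splits and in 7 unnumbered splits. Its row spans bases 62223330 to 62223836 of chromosome 17 (507 bases of gene, status OK in all 20). In numbered splits 1 to 10 it had 2965, 3424, 2376, 2659, 2773, 917, 1865, 3468, 2199 and 2585 FPKM. In unnumbered splits it had 1119 FPKM in split 248 and 232 FPKM in split 249, and 2.43, 0.981, 0.871, 1.59 and 3.65 FPKM in splits 232, 233, 250, 251 and 253. It was listed at 0 in splits 246, 247 and 252. Split 248 exceeds the lowest numbered split, so the sets overlap by that library. The mean was 2523 ± 755 FPKM in numbered splits and 136 ± 353 FPKM in unnumbered splits (SD, n = 10 each), a ratio of 18.5, and the log2 difference was 8.70.

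The fragments behind these values differed far less than the FPKM. They numbered 2.08 to 8.27 in numbered splits and 0 to 7.93 in unnumbered splits, 45.3 and 25.2 in all. Per M this is 0.280 ± 0.0966 in numbered splits and 0.0765 ± 0.0810 in unnumbered splits (SD, n = 10 each), a ratio of 3.65. One fragment was worth 414 to 811 FPKM in numbered splits. It was worth 372 and 453 FPKM in unnumbered splits 248 and 249, but 0.398 to 0.546 FPKM in the other 5 unnumbered splits above 0. The length by which FPKM was divided was accordingly 0.0876 to 0.118 bases in numbered splits and 0.116 and 0.0593 bases in splits 248 and 249, against 47.4 to 71.1 bases in the other 5. For comparison that length was 59.96 bases for RMRP, with 264 bases, and 0.0710 bases for SNORD13, with 104. In split 253 the row thus had 7.93 fragments and 3.65 FPKM, and in split 2 it had 8.27 fragments and 3424 FPKM. The files give no value per transcript, so which of the transcripts printed above each fragment was given to was not tested, and for a row with 2 transcripts the bounds may not equal a fragment number exactly.

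A pair of small nucleolar RNA rows overlaps RP11-329L6.1. SNORD104, a box C/D RNA, was listed at 0 in all 20 libraries. SNORA76 was above 0 in 5 numbered splits, with at most 165 FPKM, and in 1 unnumbered split, with 228 FPKM in split 233. Both had status LOWDATA throughout, which marks rows too thin to fit, and neither was tested. The run means of RP11-329L6.1 were 2256 ± 1108 FPKM in run a (n = 4) and 2701 ± 439 FPKM in run b (n = 6; SD), a log2 difference of -0.41 (SE 0.30; limma, adjusted p = 0.832).

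**Figure D3:**
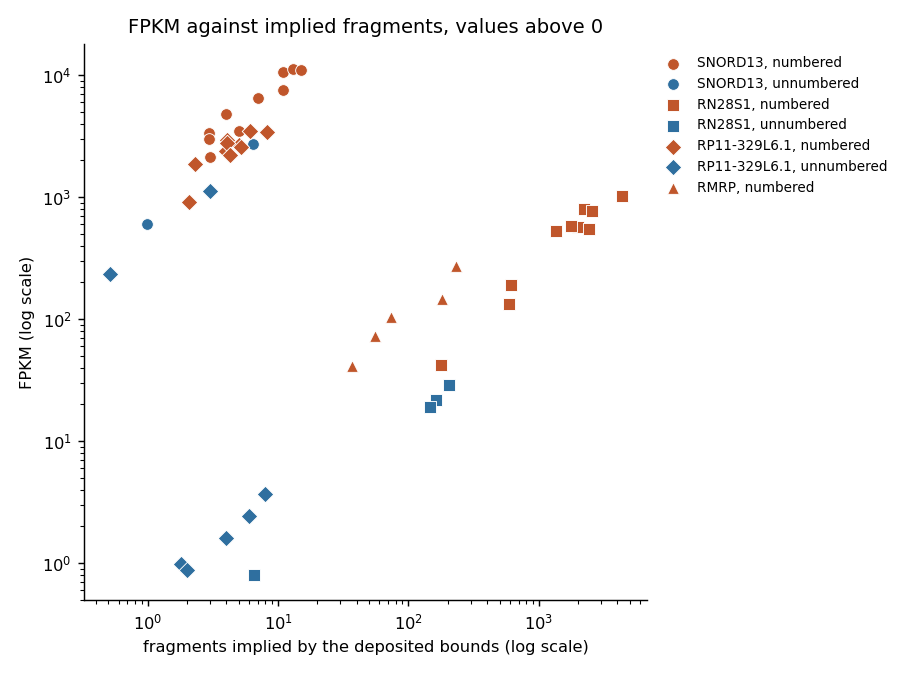
FPKM against the number of fragments implied by the deposited bounds, for each library in which a member was above 0, both axes on a log scale. SNORD13 and RP11-329L6.1 reach over 1000 FPKM with fewer than 20 fragments, while RN28S1 needs 1779 fragments for 580 FPKM in split 7. The 5 unnumbered RP11-329L6.1 points under 5 FPKM have 1.80 to 7.93 fragments, and the numbered points of 917 to 3468 FPKM have 2.08 to 8.27.

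RMRP was above 0 in 5 numbered splits and listed at 0 in all 10 unnumbered splits. Its row spans bases 35657751 to 35658014 of chromosome 9 (264 bases, status OK in all 20). It had 104 FPKM in split 1, 146 in split 2, 73.0 in split 5, 275 in split 7 and 41.0 in split 8, and was listed at 0 in splits 3, 4, 6, 9 and 10. These values rest on 73, 180, 55, 232 and 37 fragments, so a split either held at least 37 fragments or was listed at 0, with none between. In the splits at 0 a single fragment would have been worth 0.824 to 1.14 FPKM in the numbered set and 0.431 to 2.14 FPKM in the unnumbered set without split 247. The exact 0 of such files can also be a failed estimate. The mean was 63.8 ± 90.5 FPKM in numbered splits (SD, n = 10), the log2 difference was 3.36, and no fold is given against a set listed at 0.

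Run a held 3 of its 4 splits with RMRP above 0 and run b 2 of its 6. The run means were 97.2 ± 122 FPKM in run a and 41.6 ± 65.8 FPKM in run b (SD), and the log2 difference was 2.61 (SE 1.97; limma, adjusted p = 0.832). Of the 4 members in this fit 0 passed, where 1 of 9955 rows did (0.01%; 492 rows at an unadjusted p under 0.05, RN28S1 among the members). The row that passed, named after its values were seen, was PVT1, a long noncoding RNA, with 253 ± 181 FPKM in run a and 0.170 ± 0.162 FPKM in run b (log2 difference 7.48, SE 1.03; limma, adjusted p = 0.0392). It passed again without the filter, but not with another pseudocount or size factors, nor without any one of the 10 splits (limma, adjusted p from 0.0586 to 0.383). SNORD13 averaged 5941 ± 3684 FPKM in run a and 6603 ± 3759 FPKM in run b, a log2 difference of -0.12 (SE 0.45; limma, adjusted p = 0.969).

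RPPH1 was listed at 0 in all 20 libraries in both of its rows on chromosome 14. The row taken, bases 20811207 to 20811844 (638 bases), had status OK in all 20, and the shorter one, bases 20811234 to 20811566 (333 bases), had LOWDATA in all 20. Neither entered a fit. The 0 of the longer row is thus that of the row named RPPH1 in the files, which GENCODE 29 gives another gene name, and the 0 of the shorter row has no usable status. The longer row overlaps PARP2, a DNA repair enzyme, which was above 0 in 6 numbered splits (highest 98.8 FPKM) and in 9 unnumbered splits (highest 272 FPKM), with a log2 difference of -0.71 (SE 1.14; limma, adjusted p = 0.757). Of the 1139 rows used within 10% of 638 bases, 236 (20.7%) were above 0 in any library.

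By median FPKM in numbered splits the order was SNORD13 (5651), RP11-329L6.1 (2622), RN28S1 (557), RMRP (20.5) and RPPH1 (0). Each neighbour in this order down to RMRP overlaps the next in its range over splits. By the median number of fragments it was RN28S1 (1897), RMRP (18.5), SNORD13 (5.98), RP11-329L6.1 (4.15) and RPPH1 (0). In the numbered splits 2276 values reached 1000 FPKM, and 66 of them (2.90%) rested on fewer than 20 fragments; in the unnumbered splits it was 36 of 2067 (1.74%).

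Correlations between members over the numbered splits were weak. Between pairs of the 4 detected members r ran from -0.28 (SNORD13 and RMRP) to 0.40 (RP11-329L6.1 and RMRP) on log2 values, over 10 libraries. With depth their r ran from -0.50 (RMRP) to 0.08 (SNORD13). The coefficient of variation was 0.558 for SNORD13, against a median of 0.203 for the 83 genes within 2-fold of its mean level. It was 0.608 for RN28S1 against 0.423 (429 genes), 0.299 for RP11-329L6.1 against 0.230 (144 genes) and 1.42 for RMRP against 1.101 (1975 genes). Each of these 4 thus lay above the median of genes of like FPKM, though SNORD13 and RP11-329L6.1 have fewer fragments than most genes of that level. For RP11-329L6.1 counting alone would give 0.470, more than the 0.299 seen, so no variability beyond counting is shown for it.

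The most similar profiles among 2622 ranked genes (2623 for RMRP) were NDUFAF2 (r = 0.91) and NDUFB11 (r = 0.87), both of mitochondrial complex I, for SNORD13. For RP11-329L6.1 they were the mitochondrial chaperone TRAP1 (r = 0.92) and the small GTPase RHOG (r = 0.91, but 0.06 without the 2 splits farthest from the median). For RMRP they were the protease CTSS (r = 0.84) and the methionine salvage enzyme APIP (r = 0.80). Over the unnumbered splits r was 0.30 for NDUFAF2, -0.28 for NDUFB11, -0.34 for TRAP1 and 0.01 for RHOG.

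Other structural noncoding RNAs were measured from a list of spliceosomal, signal recognition particle, Y, vault, telomerase and small nucleolar RNAs, 51 of whose 63 symbols are in the files. Of the 34 rows above 0 in any library, 33 were above 0 in more numbered than unnumbered splits, and TERC, the telomerase RNA, in fewer. Among rows used in the fits it was 18 of 19, where 47.5% of all 24874 such rows were above 0 in more numbered splits and 29.9% in fewer. The other 17 rows were listed at 0 in all libraries. The summed FPKM of the list ran from 3797 to 7045 in numbered splits and from 0 to 604 in unnumbered splits, with no overlap. That sum includes rows left out of the fits for LOWDATA, such as SNORD118 (mean 1389 FPKM in numbered splits). It also adds each RNU1 copy separately (RNU1-1 averaged 374 FPKM in numbered splits). The list was assembled with results of these data known and holds copies that share reads, so its counts and sums are a description.

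Of its 17 tested rows 6 were higher in numbered splits and 0 lower (limma, adjusted p), where 3.93% of all rows were higher and 1.38% lower. Some, such as RNU4-2, RNU11 and RNY1, were at 0 in all unnumbered splits. They entered the fits through numbered splits alone and could not come out lower, so these calls too are a description. The median log2 difference of the list was 3.58, and that of all tested rows 0.35. Without the filter 4 of 19 rows were higher (median 1.96), and with runs b, c and d only 3 of 11. RNU1-1, a gene of the U1 spliceosomal RNA, had 182 to 595 FPKM in numbered splits (median 330) and was above 0 in 4 unnumbered splits, with at most 33.4 FPKM (log2 difference 6.77, SE 0.80; limma, adjusted p = 1.78e-06). RNU1-3 and RNU1-4 have identical values, so these 3 calls are a single measurement. RNY1, a Y RNA bound by the Ro60 protein, was above 0 in 6 numbered splits (median 597 FPKM, on a median of 3.50 fragments) and listed at 0 in all unnumbered ones (limma, adjusted p = 0.0151).

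RN7SL1 and RN7SL2, near-identical genes of the signal recognition particle RNA, were above 0 in 9 numbered and 4 unnumbered splits. Their medians were 93.5 and 96.3 FPKM in numbered splits and 0 in unnumbered splits, with log2 differences of 4.07 and 4.38 (limma, adjusted p = 0.0341 and 0.0105). RN7SL1 no longer passed without unnumbered split 247, with a pseudocount of 0.1 or without the filter (limma, adjusted p up to 0.350 over the alternatives). RNY1 did not pass without the filter either, and RN7SL1, RN7SL2 and RNY1 did not pass with run a left out. RN7SK, which holds the elongation factor P-TEFb inactive, had a median of 152 FPKM in numbered splits and 14.3 FPKM in unnumbered splits and did not pass (log2 difference 3.58; limma, adjusted p = 0.0830). SNORD118, the U8 small nucleolar RNA, had the highest mean of the list, with a median of 1289 FPKM in numbered splits and 0 in unnumbered splits, but its status was LOWDATA and it was not tested.

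**Figure D4:**
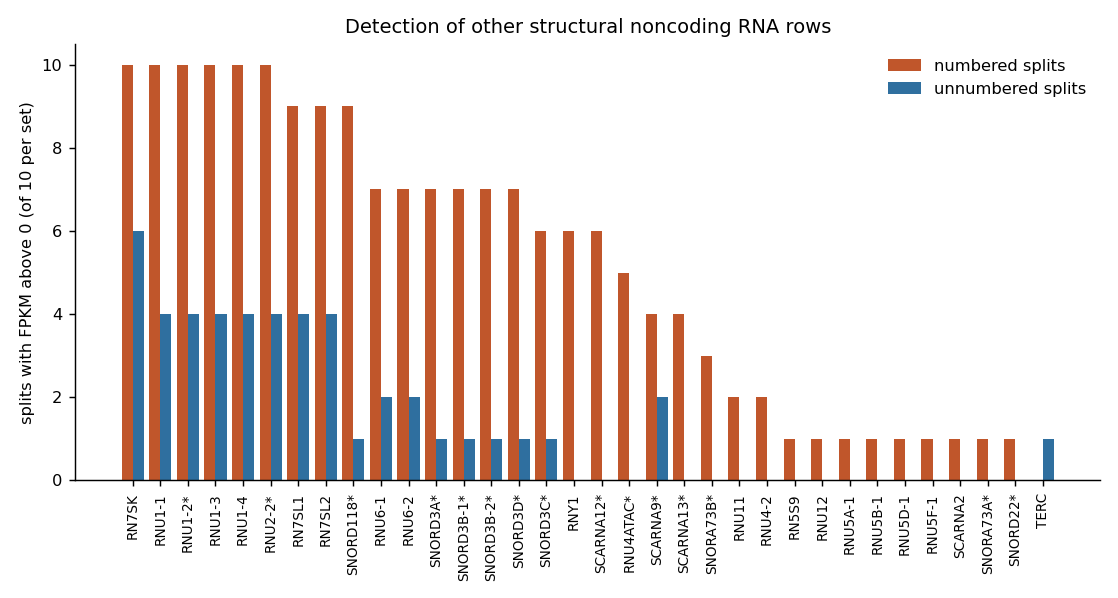
Number of splits, of 10 in each set, in which each other structural noncoding RNA row was above 0 FPKM, with the numbered bar left of the unnumbered bar. An asterisk marks rows left out of the fits by their status. In 33 of the 34 rows the numbered bar is the higher one, and the copies of RNU1, RNU6, RN7SL and SNORD3 share reads.

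Protein genes of the same pathways were measured from lists assembled in the same way. Over all rows tested, 3.93% were higher and 1.38% lower in numbered splits, and the shares of called genes below are to be read beside these. Of the 10 tested protein subunits of RNase P and RNase MRP, which bind RMRP and RPPH1, 0 passed in either direction (5.31% of all rows did). Their median log2 difference was -0.10, but 0.34 without unnumbered split 247. POP5 averaged 94.5 ± 76.7 FPKM in numbered splits and 217 ± 179 FPKM in unnumbered splits, and RPP30 averaged 79.1 ± 59.8 FPKM in numbered splits and 197 ± 206 FPKM in unnumbered splits (SD, n = 10 each). Of 14 box C/D small nucleolar RNA partners 1 was lower and 0 higher (median -0.34, but 0.14 with runs b, c and d only, where 0 passed). Without split 247 the calls were 2 lower and 1 higher, the last being PIH1D1 (log2 difference 4.02; limma, adjusted p = 0.0480). The call with all libraries was the core protein NOP58, with 202 ± 142 FPKM in numbered splits and 590 ± 215 FPKM in unnumbered splits (log2 difference -2.10, SE 0.62; limma, adjusted p = 0.0449). NHP2L1, which binds the kink-turn of such RNAs, averaged 627 ± 243 FPKM in numbered splits and 815 ± 353 FPKM in unnumbered splits and did not pass (limma, adjusted p = 0.605).

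Of 34 ribosomal RNA processing factors 1 was lower and 0 higher in numbered splits (median -0.55), and 2 were lower with size factors or TPM, against 1.38% of all rows lower. The call was the nucleolar chaperone NPM1, with 6774 ± 1724 FPKM in numbered splits and 10648 ± 1069 FPKM in unnumbered splits (log2 difference -0.69, SE 0.11; limma, adjusted p = 1.75e-04). Nucleolin, NCL, averaged 755 ± 255 FPKM in numbered splits and 571 ± 224 FPKM in unnumbered splits and did not pass (limma, adjusted p = 0.459). Of 26 RNA polymerase III genes and partners of its transcripts 1 was lower and 0 higher (median 0.63), again beside 1.38% lower over all rows. That was SSB, the La protein that binds the 3′ ends of polymerase III transcripts, with 335 ± 167 FPKM in numbered splits and 655 ± 206 FPKM in unnumbered splits (log2 difference -1.004, SE 0.28; limma, adjusted p = 0.0357). TROVE2, the Ro60 protein, averaged 89.5 ± 103 FPKM in numbered splits and 235 ± 158 FPKM in unnumbered splits (limma, adjusted p = 0.460). With run a left out, neither NOP58 nor SSB passed.

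Of 15 RNA polymerase I genes 1 was higher and 0 lower in numbered splits (median -0.54), beside 3.93% higher over all rows. TAF1D, a subunit of the factor that recruits polymerase I and itself a host of small nucleolar RNAs, averaged 285 ± 187.4 FPKM in numbered splits and 53.2 ± 95.3 FPKM in unnumbered splits (log2 difference 4.56, SE 0.97; limma, adjusted p = 0.00321). POLR1D, a subunit shared by polymerases I and III, averaged 225 ± 148 FPKM in numbered splits and 92.2 ± 97.8 FPKM in unnumbered splits and did not pass (limma, adjusted p = 0.104).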

How the data were processed

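FPKM per gene, with confidence bounds and a status, were deposited by the authors for each library, and the submitters' processing notes name TopHat 1.4.1 and Cufflinks 2.0.2 for them. Their genome build was not given in the sources used here. Starts in the files count from 0 and were raised by 1. Rows with LOWDATA in every library (5797) or FAIL in any (128) were left out of fits, leaving 49115. The fragment number behind a value was taken as 4 times the squared FPKM over the squared distance to the upper bound, and depth from a line of this number over FPKM against length for 10 mitochondrial genes. Differences were computed on log2(FPKM + 1), which understates the change of low genes, and tested with limma 3.58.1 in R 4.3.3 (trended variance, Benjamini-Hochberg adjustment over all rows with a mean of at least 1 FPKM, threshold 0.05), a procedure also tested on simulated data. Python 3.11.15, numpy 2.4.6, pandas 2.3.3 and matplotlib 3.10.9 did the rest. Members and lists were chosen with earlier results of these data known. Named besides the members were the 2 genes most like each, the rows overlapping them, and from each list the 2 genes of highest mean and up to 3 past the threshold; RN7SL1, RN7SL2, RN7SK, TERC, MS4A1, PIH1D1, MT-RNR2, PVT1 and MPV17 fall outside this rule and were named after their values were seen. Intervals and fragment numbers cover counting error only, and p-values the spread between splits. Alternatives were other pseudocounts, filters and scalings, runs, and leaving out libraries.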

Additional observations from a re-analysis of the deposited data

Results flagged for a closer look

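In all, 25 groups of values were examined. Among them, 5 values stood apart from the rest of their group by the size of the gap to the nearest other split. A chance rate of about 1 flag in 20 groups holds only for normally distributed values. Some flagged groups are far from that, such as SNORD13 in unnumbered splits, where most libraries hold no fragment. The rows of SNORD13 and TTI2 also overlap. The flags are therefore a description and cannot be compared with that rate. SNORD13 in unnumbered split 232 (2714 FPKM) and RP11-329L6.1 in unnumbered split 248 (1119 FPKM) stood above the other unnumbered splits. RMRP in numbered split 7 (275 FPKM) stood above the other numbered splits. TTI2, the gene that holds SNORD13, stood apart in numbered split 7 (49.8 FPKM) and in unnumbered split 232 (263 FPKM), the same unnumbered split as for SNORD13.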

How the results depend on the processing

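No paired analysis was possible because the numbered and unnumbered splits share no replicate numbers. Of rows between the sets 558 passed in the main fit and 359 with runs b, c and d only, which leaves out 4 libraries; other scalings moved the median log2 difference of all rows from 0.35 to 0.21 (size factors) and 0.22 (TPM). Between runs a and b 1 row passed, 0 with a pseudocount of 0.1, a pseudocount of 10 or size factors, 5 without the filter (PVT1 among them), and 0 to 1 without any one numbered split; the 1, without split 10, was another row (MPV17, lower in run a). The log2 difference of RN28S1 between the sets was 9.23 with a pseudocount of 0.1 and 4.79 with one of 10, and SNORD13, RP11-329L6.1 and RMRP kept their direction in every alternative tried, while RPPH1 was 0 in each. Between runs, SNORD13 changed sign when any one of 4 splits was left out: 0.06 without split 3, 0.08 without split 4, 0.09 without split 5 and 0.14 without split 7, within a range of -0.48 to 0.14 over all 10. Leaving out one split at a time, the run difference of RN28S1 ranged from 1.22 to 1.97, of RP11-329L6.1 from -0.67 to -0.03 and of RMRP from 1.55 to 4.25. Of the other structural rows, 33 of 34 were above 0 in more numbered splits, 18 of 19 among rows used in the fits, 23 of 24 without run a and 24 of 25 with 1 row per family of copies, alternatives chosen after seeing the data. With runs b, c and d only, SSB (adjusted p = 0.185), RN7SL1 (0.350), RN7SL2 (0.162), RNY1 (0.0889), the B cell markers MS4A1 (0.0792) and CD79A (0.0540), and NOP58 no longer passed, and NOP58 reached its highest adjusted p, 0.127, without the filter. Depth limits SNORD13 and RP11-329L6.1, at under 20 fragments a library, and split 247.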
